A study of Mus musculus with 15 samples.

Results

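Expression of 9 genes that interferon switches on was followed in the RNA-Seq libraries of the dietary restriction experiment. They are Ifit1, Ifit3, Isg15, Irf7, Oasl2, Usp18, Rsad2, Bst2 and Ifi44, chosen by symbol, and all 9 were found. They are carried by 11 of the 23589 loci with a gene name, because Isg15 and Usp18 each have a second locus at the same place on the opposite strand. The second loci were kept apart from the genes, and the values of Isg15 and Usp18 below are those of the strand on which the gene lies.

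The libraries came from male C57BL/6 mice in 3 groups. Mice of the AL group ate ad libitum and were 5 months of age. Mice of the DR group received 60% of that amount for 1 month, from 4 to 5 months of age. Mice of the DR-AL group had the same month of restriction, were then fed AL for 2 months and were 7 months of age, so that diet history and age cannot be told apart in this group. Liver, epididymal fat, colon, hypothalamus and hippocampus were sampled, and 1 library was made per tissue and diet from the pooled RNA of 5 mice, 15 in all. The question here was how the interferon-stimulated genes stood after short-term DR and after the return to AL.

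Interferons are secreted proteins through which cells announce a virus. Type I interferons bind a receptor of 2 chains, encoded by Ifnar1 and Ifnar2, and the kinases Jak1 and Tyk2 then start a signal that ends at the interferon-stimulated response element in the promoters of the target genes. Interferon gamma uses another receptor. Ifit1 and Ifit3 encode proteins that hold back foreign RNA, Rsad2 encodes viperin, an enzyme that makes an antiviral nucleotide, and Oasl2 belongs to the family of 2′-5′ oligoadenylate synthetases. Bst2 encodes tetherin, which holds budding virus at the cell surface, and Ifi44 encodes a GTPase-like protein. Isg15 encodes a small protein that is attached to other proteins, and Usp18 encodes the protease that takes it off and also damps signalling at the receptor. Irf7 encodes a transcription factor that amplifies the production of interferon. Many tissues hold these transcripts at a low level without any infection.

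The promoters are shown because the shared element is what the 9 genes are known for. RefSeq promoter windows on GRCm38.p6 were given for 8 of the 9 genes, all except Usp18. The core of the response element was searched as GAAANNGAAA on both strands of the 250 bases before the start, where overlapping matches were counted separately. It was present in 5 of the 8 windows, and 2.98% of all 32851 promoter windows of that length held it. The 140 bases from 180 to 41 before the start are printed for these 5 genes, each on the strand of its gene and with the matching bases in capitals. The Ifit1 window is chr19:34640709-34640848 (+) and that of Ifit3 chr19:34583349-34583488 (+). Those of Isg15, Rsad2 and Bst2 are chr4:156200859-156200998 (-), chr12:26456493-26456632 (-) and chr8:71537513-71537652 (-).
Ifit1: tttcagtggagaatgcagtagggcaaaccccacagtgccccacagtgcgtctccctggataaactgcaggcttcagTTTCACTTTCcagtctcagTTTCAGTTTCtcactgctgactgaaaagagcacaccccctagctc
Ifit3: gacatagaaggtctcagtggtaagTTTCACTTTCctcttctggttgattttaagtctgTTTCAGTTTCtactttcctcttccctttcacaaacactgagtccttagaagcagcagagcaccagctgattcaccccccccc
Isg15: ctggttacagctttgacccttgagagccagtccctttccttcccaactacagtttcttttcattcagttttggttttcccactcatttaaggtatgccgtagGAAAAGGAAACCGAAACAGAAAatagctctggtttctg
Rsad2: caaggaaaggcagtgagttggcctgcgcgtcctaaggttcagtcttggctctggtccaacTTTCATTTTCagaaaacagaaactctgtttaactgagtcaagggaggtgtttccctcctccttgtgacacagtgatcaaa
Bst2: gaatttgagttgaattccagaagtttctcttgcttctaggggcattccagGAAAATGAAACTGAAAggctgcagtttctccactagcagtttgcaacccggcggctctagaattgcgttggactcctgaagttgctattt

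Ifit1 and Ifit3 hold the same pair of matches, TTTCACTTTC and TTTCAGTTTC, at 104 and 85 bases before the start in Ifit1 and at 156 and 122 bases in Ifit3. Isg15 holds 3 matches that run into each other from 78 to 57 bases before the start, and Bst2 holds 2 overlapping ones from 130 to 115. Rsad2 holds 1 match at 120 bases. The windows of Irf7, Oasl2 and Ifi44 held no match to these letters. The gamma-activated sequence, searched as TTCNNNGAA, matched in the Bst2 window alone of the 8, from 136 to 128 bases before the start and overlapping its first response element match, and in 7.02% of all windows.

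On GRCm38 the genes lie on 8 chromosomes by the GENCODE M21 annotation. Ifit1 is at chr19:34640871-34650009 (+) and Ifit3 at chr19:34583531-34588731 (+), close neighbours on 1 chromosome. Isg15 is at chr4:156199424-156200818 (-), Irf7 at chr7:141262706-141266481 (-) and Oasl2 at chr5:114896936-114912234 (+). Usp18 is at chr6:121245906-121270917 (+), Rsad2 at chr12:26442746-26456452 (-), Bst2 at chr8:71534255-71537456 (-) and Ifi44 at chr3:151730922-151749960 (-). The Ifit1 locus of the deposited table spans 72019 bases, against 9139 in the annotation, and overlaps related Ifit genes, so the split of reads among near-identical Ifit copies is uncertain.

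The values are the authors' counts of reads per locus, printed as CPM, the count of a locus scaled to the library total over named loci. The counts on named loci numbered between 21767088 and 40500130 per library. Each tissue has 1 library per diet. Libraries of a tissue were compared with the Z test of the methods, and a gene was called higher or lower at a Benjamini-Hochberg adjusted p under 0.05 over all genes together with a ratio of at least 5 to 4 between the libraries. The test compares libraries and not diets, no difference within a tissue has a replicate check, and the 95% intervals of log2 fold changes cover counting error only. Shares of all genes within a tissue are over those with at least 1 count there, 17408 in liver. In liver 12823 genes averaged 10 counts or more, as the 9 did in each tissue. Genes with few counts are harder to call, so these shares can lie lower than among genes as abundant as the 9. In pooled tissue, fewer cells that carry a transcript and less transcript per cell cannot be told apart. The labelled tissues carried their markers, but the fat libraries also held genes of other organs in unequal amounts. The 7 markers of testis germ cells summed to 5.45 CPM in AL, 527 CPM in DR and 2590 CPM in DR-AL fat. The 8 of epididymis summed to 909, 3270 and 5090, and the 10 of hepatocytes to 14100, 5300 and 4110. At most 2 markers of these lists were at 0 in a fat library. Most epididymis markers did not follow their sum from DR to DR-AL. Of the 8, 2 were called higher and 6 lower in that comparison (38.3% and 13.3% of all genes). Their median log2 fold change was -3.89. The hepatocyte markers fell more than their sum. Of the 10, 9 were measured in fat. All 9 were called lower in DR and in DR-AL than in AL (10.4% and 11.9% of all genes). Their median log2 fold change was -6.36 for DR against AL, and the fall was larger for DR-AL against AL.

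The 9 genes had different leading tissues. Over the 3 libraries of a tissue, Irf7 stood at 174 ± 51.1 CPM (SD, n = 3) in colon, 34.9 ± 4.60 in liver and 26.3 ± 5.38 in fat. It stood at 2.94 ± 1.08 CPM in hypothalamus and 1.72 ± 0.242 in hippocampus. Bst2 stood at 115 ± 14.4 CPM in liver, 33.2 ± 5.06 in fat, and between 3.15 ± 0.566 and 4.10 ± 0.840 in the other 3 tissues, which overlapped. For both genes the libraries of the leading tissue did not overlap with those of the next.

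Ifit1 was highest in colon, at 17.6 ± 9.24 CPM, and its 3 colon libraries overlapped with those of liver (9.77 ± 4.98). Oasl2 was also highest in colon, at 36.8 ± 15.8 CPM, followed by fat at 20.2 ± 1.36 without overlap, and it was low in liver (3.55 ± 0.216) and hippocampus (3.43 ± 0.678), which overlapped. Isg15 and Usp18, the modifier and its protease, were both highest in liver, at 8.72 ± 3.61 and 9.93 ± 4.88 CPM. The 2 genes parted in the next place, which was colon for Isg15 (5.89 ± 1.09) and fat for Usp18 (4.33 ± 1.40). Ifit3 stood at 15.1 ± 5.74 CPM in hypothalamus and 14.1 ± 2.58 in fat, which overlapped, and was lowest in colon, at 3.29 ± 1.06. Rsad2 stood at 16.8 ± 5.78 CPM in fat, 12.7 ± 1.49 in colon and 11.0 ± 8.87 in liver, which all overlapped. Ifi44, the least abundant of the 9, stood at 2.82 ± 0.731 CPM in fat and 2.31 ± 0.688 in liver, which overlapped, and under 1 CPM in the other tissues. Hippocampus had the lowest mean for 8 of the 9 genes, all except Ifit3. The fat libraries also held genes of other organs, as given above, and their part in the fat levels was not tested.

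The order of tissues depends on how libraries are scaled. By the mean of the authors' FPKM, which also corrects for length, the leading tissue was the same for 6 genes and turned to liver for Ifit3 (8.13 FPKM), Rsad2 (5.63 FPKM) and Ifi44 (1.50 FPKM). On that scale the most abundant of the 9 was Bst2 in liver, at 373 ± 20.7 FPKM, followed by Irf7 in colon, at 106 ± 28.2 FPKM.

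**Figure D1:**
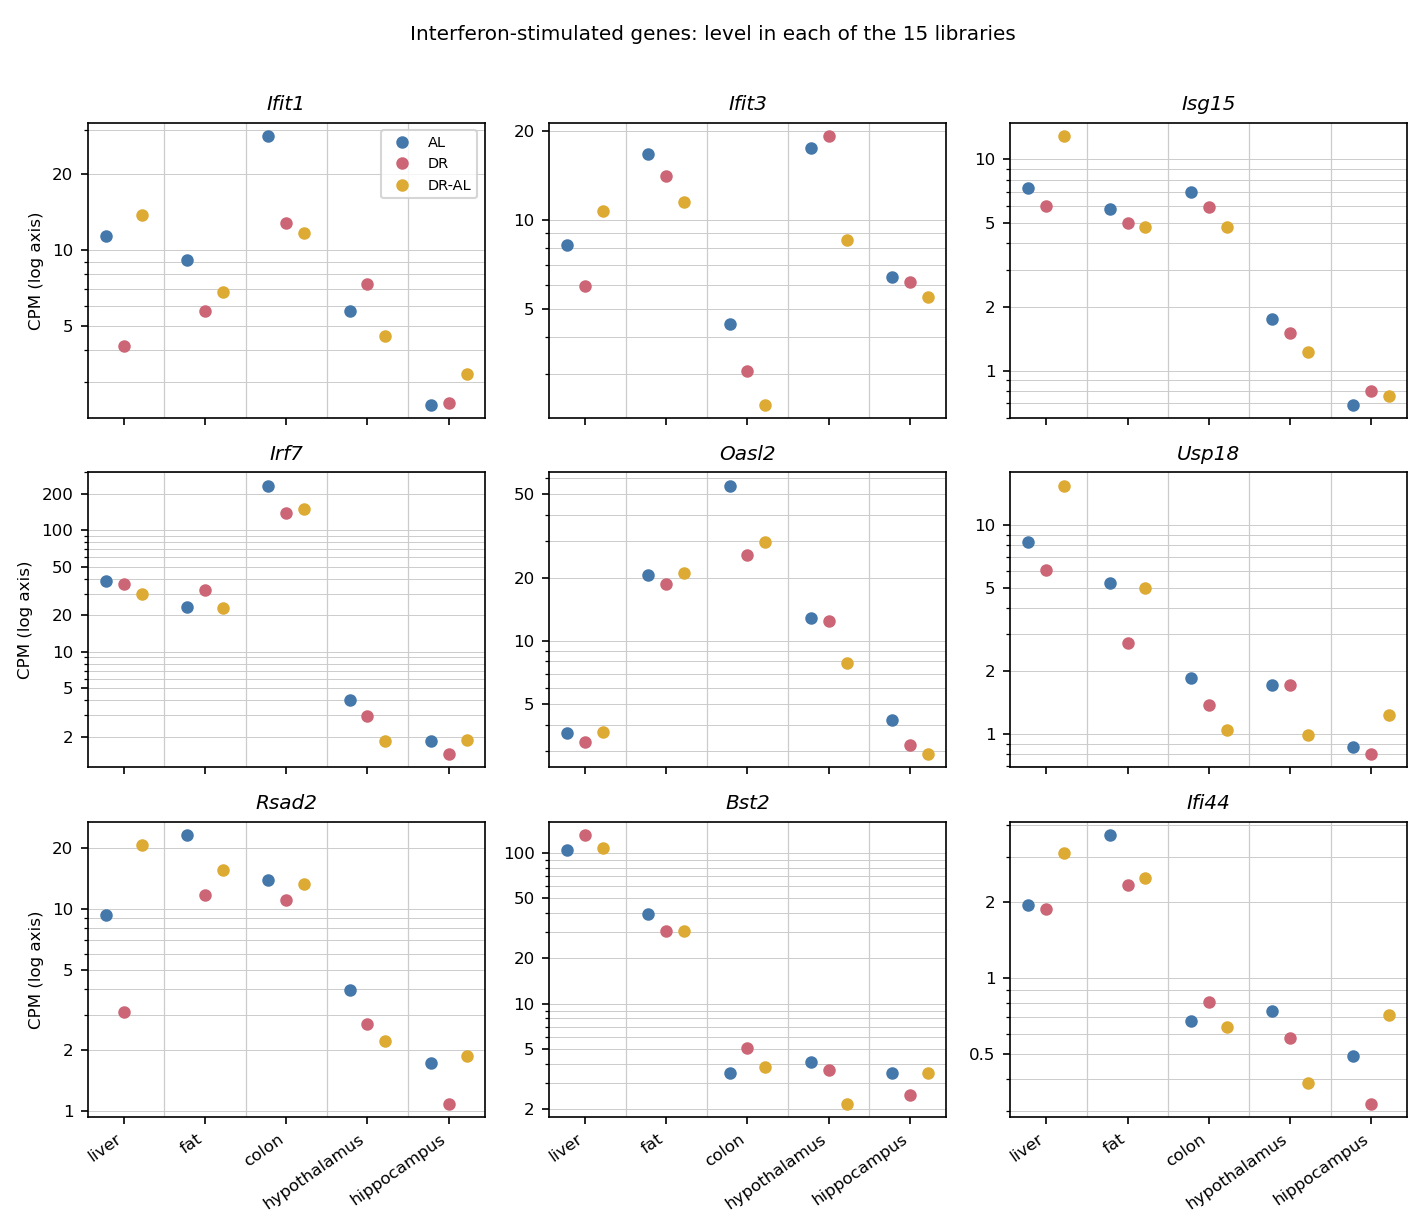
CPM (log axis) of each of the 9 genes, 1 panel per gene, in the 15 libraries. Points are single libraries, coloured by diet (AL blue, DR red, DR-AL yellow) and grouped by tissue, and the y axes differ between panels. Irf7 is highest in colon and Bst2 in liver. In liver the DR-AL point lies above the other 2 for Ifit1, Ifit3, Isg15, Usp18, Rsad2 and Ifi44. For Oasl2 it is almost level with AL (3.71 and 3.64 CPM).

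Tissue pairs were contrasted by edgeR's quasi-likelihood test in a fit of all 15 libraries, with diet as a term and the 3 libraries of a tissue as the spread. All 9 genes were higher in liver than in hippocampus at an adjusted p under 0.05 (76.9% of all genes were called in either direction), and all 9 were higher in fat than in hippocampus (74.1%). Liver exceeded hypothalamus for 7 genes (77.8%), as did fat (71.0%), and colon exceeded hippocampus for 6 (76.5%). Colon against hypothalamus gave 6 higher and 1 lower (77.1%), the lower one being Ifit3, with a log2 fold change of -1.68 ± 0.327 (SE). Liver against fat gave 5 higher and 1 lower (70.2%), liver against colon 5 higher and 2 lower (64.0%), and fat against colon 4 higher and 3 lower (70.7%). The 2 brain regions differed in 2 genes, against 30.7% of all genes, with Ifit3 higher in hypothalamus by 1.05 ± 0.320 and Oasl2 by 1.45 ± 0.224 on the log2 scale. Taken in either direction, these shares lie near the background in most pairs. By direction they differ more. Of all 17476 genes, 6200 were higher in liver and 7012 in fat than in hippocampus. Against hypothalamus, 6095 were higher in liver, 6540 in fat and 6099 in colon, and 6209 were higher in colon than in hippocampus. The part of other organs' RNA in the fat libraries was not tested.

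In liver, DR against AL gave 1 gene higher and 4 lower, where 18.0% of all genes were higher and 9.92% lower. DR-AL against AL gave 5 higher and 1 lower (15% and 15.8% of all genes), and DR-AL against DR gave 6 higher and none lower (16.9% and 24.0%). The median log2 fold change of the 9 genes was -0.28, 0.38 and 0.84 in these comparisons, beside 0.10, 0.00 and -0.11 over all genes. The 6 genes that were higher in DR-AL than in DR were Rsad2, Ifit1, Usp18, Isg15, Ifit3 and Ifi44. Each library is part of 2 of these 3 comparisons, so they are not independent. In an edgeR exact test, with the coefficient of variation among pools assumed to be 0.1, the genes called in either direction were 2, 3 and 5 of the 9, where 8.85%, 10.6% and 22.8% of all genes were called. The 10 markers of macrophages summed to 120 CPM in AL, 109 CPM in DR and 122 CPM in DR-AL liver with none at 0, and the 7 of T and NK cells to 3.23, 2.25 and 3.63 with at most 1 at 0. The 6 markers of adipocytes summed to 15.4, 15.5 and 86.1 CPM, highest in DR-AL and with at most 1 at 0. Of these 6, 3 were called higher in DR-AL than in AL (15% of all genes) and 1 than in DR (16.9%). Their median log2 fold changes were 1.55 and -0.42. The part of these markers in the result was not tested.

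In fat, DR against AL gave 1 gene higher and 5 lower, where 35.2% of all genes were higher and 10.4% lower. DR-AL against AL gave none higher and 5 lower (46.0% and 11.9%), and DR-AL against DR gave 2 higher and 1 lower (38.3% and 13.3%). These counts depend on the scale of the libraries. With DESeq size factors, which moved log2 fold changes in fat by -0.19, -0.34 and -0.15, the counts were 0 higher and 8 lower, 0 and 8, and 1 and 2. In the authors' FPKM with a pseudocount of 0.1, all 9 genes were lower by at least a ratio of 5 to 4 in DR and in DR-AL than in AL, and the median over genes averaging 10 counts or more was -0.45 and -1.18. The exact test called 3, 2 and 1 of the 9, beside 28.6%, 43.7% and 35.3% of all genes. The sums of testis, epididymis and hepatocyte markers given above moved over the same libraries. Immune cell markers moved too. In AL, DR and DR-AL fat, the 10 of macrophages summed to 301, 400 and 422 CPM. The 7 of T and NK cells summed to 5.8, 9.86 and 13.7 CPM. Those of B and plasma cells, 6 in number, summed to 68.7, 59.2 and 168 CPM, and the 5 of dendritic cells to 44.9, 27 and 53.5 CPM. None was at 0. The part of all these markers in the result was not tested.

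In colon, DR against AL gave 1 gene higher and 5 lower, where 9.04% of all genes were higher and 10.6% lower. DR-AL against AL gave none higher and 6 lower (5.83% and 8.50%), and DR-AL against DR gave none in either direction (6.78% and 7.67%). The median of the 9 genes was -0.42, -0.63 and -0.31, beside 0.00, -0.01 and -0.02 over all genes. The exact test called 3, 2 and 0 of the 9 in colon, beside 4.26%, 1.86% and 3.66% of all genes, and the 2 in DR-AL against AL were Ifit1 and Oasl2. Lymphocyte markers moved in colon too. The 6 markers of B and plasma cells summed to 28.5 CPM in AL, 9.72 CPM in DR and 38.1 CPM in DR-AL, and the 7 of T and NK cells to 5.76, 1.59 and 6.63, with at most 1 marker at 0. The 10 markers of macrophages summed to 34.5, 29.5 and 40.7 CPM, and the 6 of adipocytes to 44.3, 22.0 and 35.1 CPM. The part of these cells in the result was not tested.

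In hypothalamus, DR against AL gave none higher and 1 lower, where 4.33% of all genes were higher and 2.72% lower. DR-AL against AL gave none higher and 6 lower (6.06% and 9.02%), and DR-AL against DR gave none higher and 5 lower (2.82% and 6.80%). All 9 genes had a negative log2 fold change in both comparisons of DR-AL, with a median of -0.84 and -0.67, beside -0.03 in each over all genes. The exact test called 0, 2 and 1 of the 9, beside 1.21%, 3.45% and 1.89% of all genes. The 2 were Ifit3 and Irf7, and the 1 was Ifit3. The 10 markers of macrophages and microglia summed to 213 CPM in AL, 192 CPM in DR and 189 CPM in DR-AL, with none at 0. Markers of other cells moved in the same libraries. The 4 of oligodendrocytes summed to 3200, 3560 and 4720 CPM, the 6 of telencephalic neurons to 38.8, 48.2 and 59.5 CPM, and the 8 of hypothalamus itself to 999, 782 and 759 CPM, none at 0. The 8 of colon epithelium summed to 30.3, 12.1 and 11.4 CPM with at most 1 at 0. Of the 6 markers of telencephalic neurons, 5 were called higher in DR than in AL (4.33% of all genes). In DR-AL 4 were higher and 1 lower than in AL (6.06% and 9.02%). Their median log2 fold changes were 2.48 and 2.41, larger than the change of their sum. The part of these markers in the result was not tested.

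In hippocampus, DR against AL gave none of the 9 genes in either direction, where 1.36% of all genes were higher and 2.67% lower. DR-AL against AL gave Oasl2 alone, lower (3.99% and 2.16%), and DR-AL against DR gave none (3.63% and 1.26%). The exact test called none of the 9 in any of the 3, beside 0.0425%, 0.292% and 0.303% of all genes. Counts of the 9 genes ranged from 10 to 259 in these libraries, so the intervals were wide. For Ifi44, with 20, 10 and 18 counts in AL, DR and DR-AL, the interval of DR-AL against DR ran from -0.03 to 2.44.

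**Figure D2:**
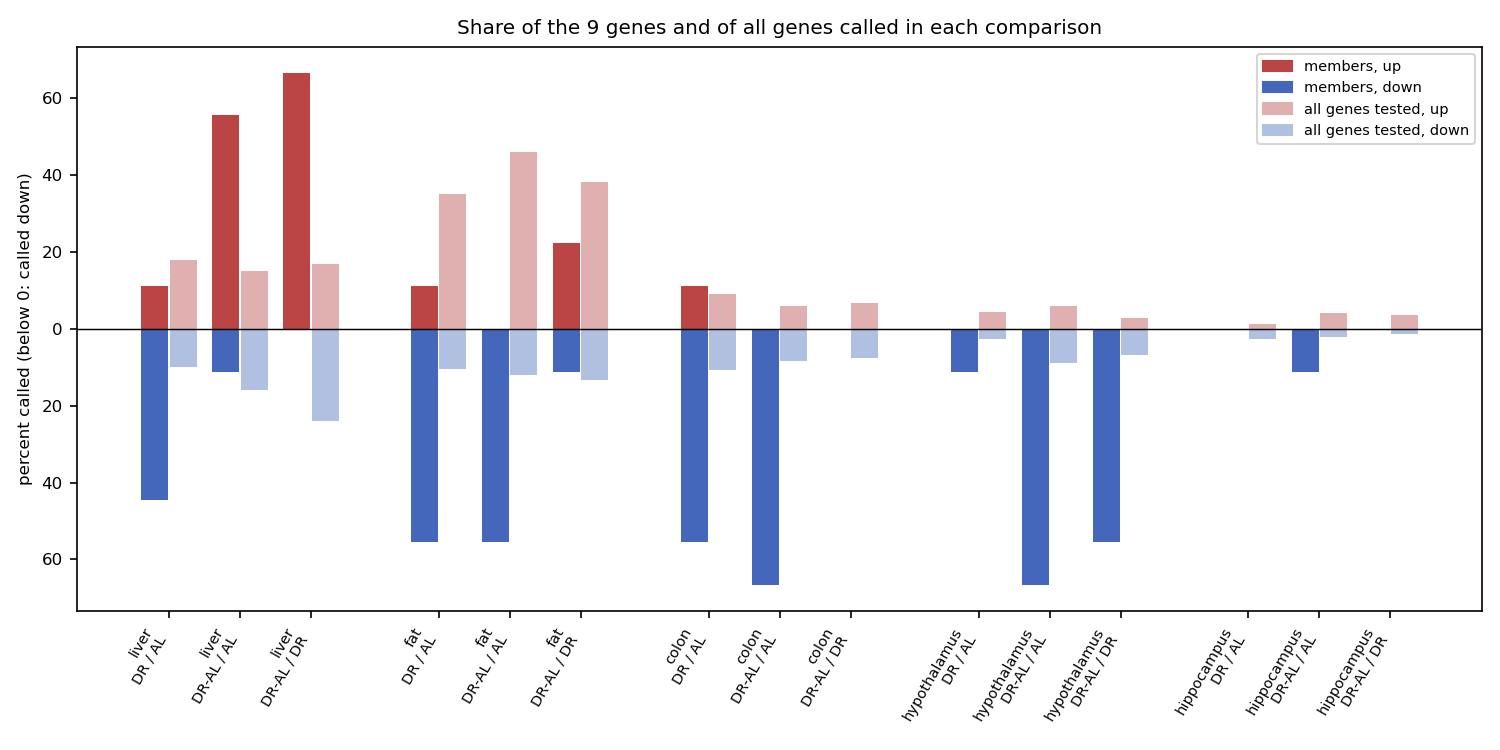
Percent of the 9 genes (dark bars) and of all genes tested (light bars) called higher (red, above 0) or lower (blue, below 0) in each of the 15 comparisons within a tissue. In liver the dark red bars of DR-AL stand above the light ones, in hypothalamus the dark blue bars of DR-AL exceed the light ones, and in fat the light red bars show the large share of all genes called higher.

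Rsad2, the gene of viperin, had the widest range in liver. Its level there was 9.30 CPM in AL, 3.08 CPM in DR and 20.6 CPM in DR-AL, from 230, 67 and 504 counts. The DR library was the lowest of the 3 and the DR-AL library the highest. The log2 fold change was -1.59 for DR against AL (interval -2.01 to -1.20), 1.14 for DR-AL against AL (0.92 to 1.38) and 2.73 for DR-AL against DR (2.37 to 3.13), which is a 6.65-fold difference. In fat, Rsad2 was 23.1 CPM in AL, 11.7 CPM in DR and 15.6 CPM in DR-AL, and both DR (-0.98) and DR-AL (-0.57) were called lower than AL. In hypothalamus it was 3.98, 2.69 and 2.21 CPM, with DR (-0.56) and DR-AL (-0.84) called lower. In colon it was 13.8, 11.0 and 13.3 CPM, with DR called lower (-0.33), and in hippocampus 1.73, 1.09 and 1.87 CPM, with none called. In CPM, DR held the lowest level of Rsad2 in every tissue except hypothalamus. In FPKM this was not so in fat, where DR-AL against DR turned from 0.41 to -0.48.

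Ifit1, whose product binds foreign RNA at its cap, was 11.4 CPM in AL liver, 4.18 CPM in DR and 13.8 CPM in DR-AL, from 281, 91 and 337 counts. The DR library stood below both others, with a log2 fold change of -1.44 against AL (interval -1.80 to -1.10) and of 1.71 for DR-AL against DR (1.38 to 2.07). DR-AL against AL was 0.28 (0.04 to 0.51) and was not called. In colon, Ifit1 was 28.2 CPM in AL, 12.8 CPM in DR and 11.7 CPM in DR-AL. The DR and DR-AL libraries stood at 0.454 and 0.416 times AL, or -1.14 (-1.32 to -0.97) and -1.27 (-1.47 to -1.07) on the log2 scale. In fat it was 9.12, 5.74 and 6.80 CPM, with both called lower than AL (-0.67 and -0.42). In hypothalamus it was 5.73, 7.36 and 4.55 CPM, and DR-AL was lower than DR (-0.69), while hippocampus, at 2.44, 2.47 and 3.22 CPM, had no call.

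Ifit3, which partners Ifit1, was 8.21 CPM in AL liver, 5.97 CPM in DR and 10.7 CPM in DR-AL. Its course in liver had the same order as that of Ifit1, with log2 fold changes of -0.46 (DR against AL), 0.38 (DR-AL against AL) and 0.84 (DR-AL against DR), all called. In hypothalamus it was 17.5 CPM in AL, 19.2 CPM in DR and 8.56 CPM in DR-AL, from 520, 630 and 267 counts. DR-AL stood apart from the other 2 libraries there, at -1.03 against AL (interval -1.25 to -0.82) and -1.17 against DR (-1.38 to -0.96). In colon it was 4.44, 3.08 and 2.36 CPM, with DR (-0.53) and DR-AL (-0.91) called lower than AL. In fat it was 16.7, 14.1 and 11.5 CPM, with DR-AL called lower than AL (-0.53). In hippocampus it was 6.40, 6.15 and 5.48 CPM, with none called.

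Oasl2 was called in colon and in the brain regions and not in liver or fat. In colon it was 54.9 CPM in AL, 25.8 CPM in DR and 29.6 CPM in DR-AL, from 1459, 862 and 742 counts. Both were lower than AL, at -1.09 (interval -1.21 to -0.97) and -0.89 (-1.02 to -0.76), and the 2 differed from each other by 0.20 (0.06 to 0.34), which was not called. In hypothalamus it was 12.9, 12.5 and 7.85 CPM, with DR-AL lower than AL (-0.72) and than DR (-0.67). In hippocampus it was 4.20, 3.20 and 2.90 CPM, with DR-AL lower than AL (-0.53). In liver it was 3.64, 3.31 and 3.71 CPM and in fat 20.7, 18.7 and 21.2 CPM, with none called. In FPKM with a pseudocount of 0.1, DR and DR-AL fat stood at -0.91 and -1.54 against AL for Oasl2.

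Bst2, the gene of tetherin, was 105 CPM in AL liver, 131 CPM in DR and 108 CPM in DR-AL, so that DR was the highest library. The DR library was called higher than AL, at 0.32 (interval 0.25 to 0.40), which lies at the threshold and was not called with DESeq size factors (0.24). In fat Bst2 was 39.1, 30.2 and 30.4 CPM, with DR (-0.37) and DR-AL (-0.36) called lower than AL. In colon it was 3.46, 5.06 and 3.79 CPM, with DR called higher than AL (0.54). In hypothalamus it was 4.11, 3.63 and 2.18 CPM, with DR-AL lower than AL (-0.91) and than DR (-0.73). In hippocampus, at 3.46, 2.50 and 3.50 CPM, none was called.

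Ifi44 had few counts, between 10 and 96 per library. In liver it was 1.94 CPM in AL, 1.88 CPM in DR and 3.10 CPM in DR-AL, with DR-AL called higher than AL (0.67, interval 0.14 to 1.23) and than DR (0.71, 0.15 to 1.30). In fat it was 3.66, 2.32 and 2.49 CPM, with DR (-0.65) and DR-AL (-0.56) called lower than AL. In colon (0.678, 0.808 and 0.639 CPM), hypothalamus (0.741, 0.580 and 0.385 CPM) and hippocampus (0.494, 0.320 and 0.715 CPM) differences were not detectable at this depth.

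Isg15 and Usp18 had the same order of libraries in liver. Isg15 was 7.32 CPM in AL, 6.02 CPM in DR and 12.8 CPM in DR-AL liver, and Usp18 was 8.25, 6.11 and 15.4. For both genes DR-AL was the highest library. Isg15 was higher in DR-AL than in AL by 0.81 (interval 0.54 to 1.08) and than in DR by 1.09 (0.79 to 1.40), and Usp18 by 0.90 (0.65 to 1.16) and 1.33 (1.05 to 1.63). Between DR and AL, Usp18 was called lower (-0.43) and Isg15 was not called (-0.28, -0.62 to 0.05).

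In colon, Isg15 was 6.97, 5.92 and 4.79 CPM and Usp18 1.85, 1.38 and 1.04 CPM in AL, DR and DR-AL, and DR-AL was called lower than AL for both (-0.54 and -0.82), although the call of Usp18 was lost with DESeq size factors (-0.80). In fat, Usp18 was 5.26, 2.72 and 5.01 CPM, with DR lower than AL (-0.95) and below DR-AL (0.88 for DR-AL against DR). In FPKM with a pseudocount of 0.1 the last value turned to -0.06 and DR-AL against AL went from -0.07 to -1.52. Isg15 was 5.80, 4.99 and 4.79 CPM in fat with none called. In hypothalamus, Usp18 was 1.72, 1.71 and 0.993 CPM, with DR-AL called lower than AL (-0.78, a call lost with DESeq size factors), and Isg15 was 1.75, 1.50 and 1.22 CPM with none called. In hippocampus neither was called, at 0.864, 0.801 and 1.23 CPM for Usp18 and 0.691, 0.801 and 0.755 CPM for Isg15. The hypothalamus libraries held 38, 52 and 46 counts on the strand opposite Isg15, about as many as on the gene (52, 49 and 38).

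Irf7, the transcription factor among the 9, had another order of libraries in liver than most of the others. It was 38.6 CPM in AL, 36.3 CPM in DR and 29.8 CPM in DR-AL, from 955, 791 and 729 counts. DR-AL was thus the lowest library, where it was the highest for 7 of the other genes, all except Bst2. Of these 7, Ifit1 (0.28) and Oasl2 (0.03) were not called for DR-AL against AL. For Irf7, DR-AL was called lower than AL, at -0.38 (interval -0.52 to -0.23). In colon Irf7 was 233 CPM in AL, 139 CPM in DR and 151 CPM in DR-AL, from 6184, 4652 and 3777 counts. Both were lower than AL, at -0.74 (-0.80 to -0.69) and -0.63 (-0.69 to -0.57), and their difference of 0.12 (0.05 to 0.18) was not called.

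In hypothalamus Irf7 was 4.01, 2.96 and 1.86 CPM, with DR-AL called lower than AL (-1.10, interval -1.59 to -0.64) and than DR (-0.67). In fat it was 23.6, 32.5 and 22.8 CPM, and DR was called higher than AL (0.46), a direction that turned to -0.35 in FPKM with a pseudocount of 0.1. In hippocampus it was 1.85, 1.44 and 1.87 CPM, with none called.

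**Figure D3:**
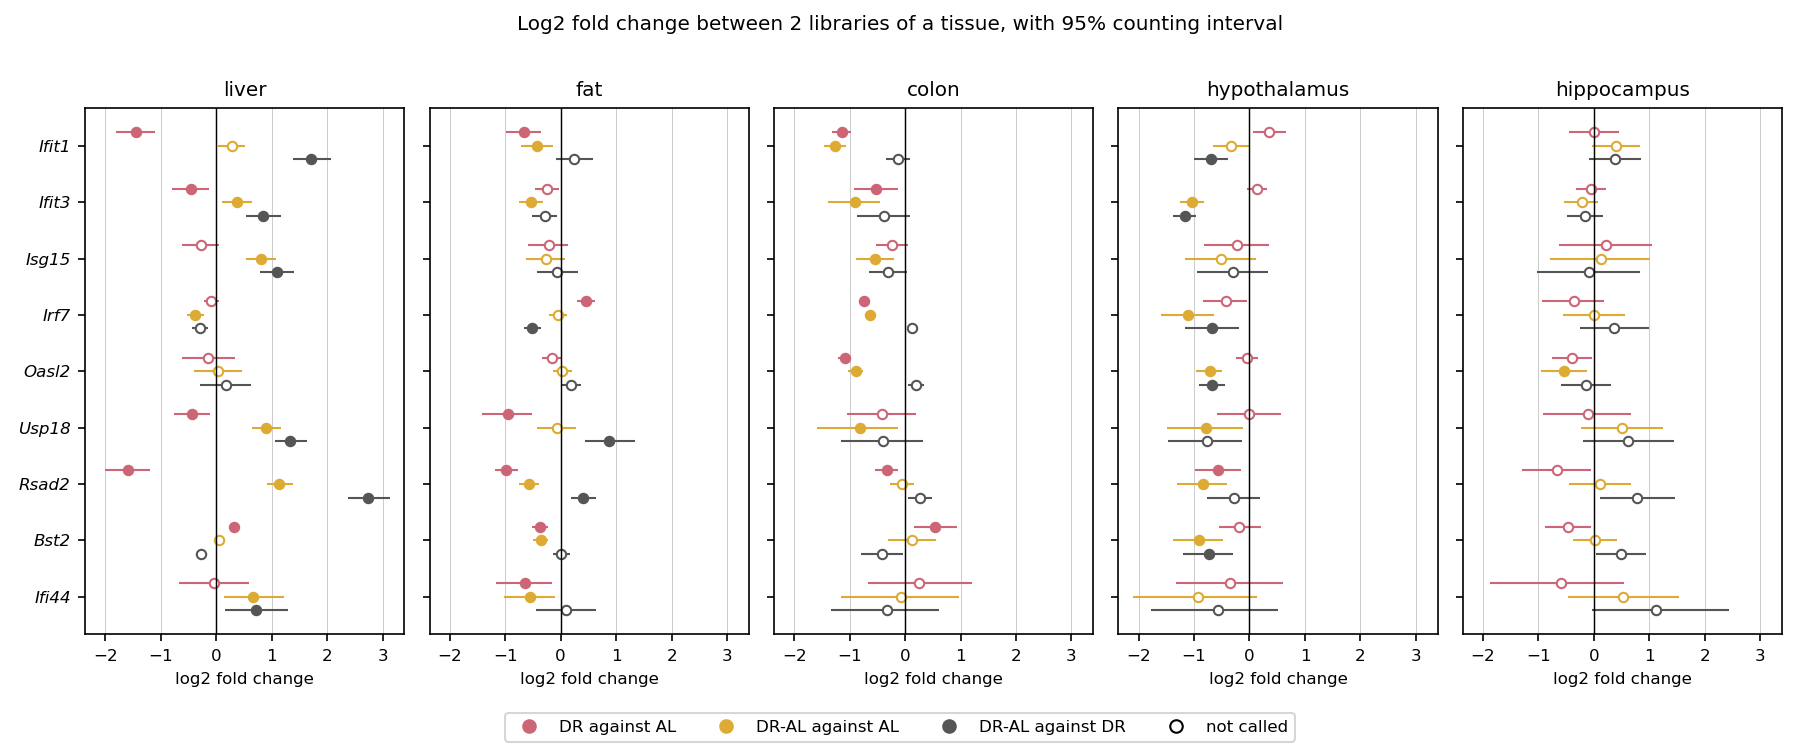
Log2 fold change of each gene between 2 libraries of a tissue, 1 panel per tissue, with bars for the 95% counting interval. Filled points were called and open points were not, with DR against AL in red, DR-AL against AL in yellow and DR-AL against DR in grey. Rsad2 in liver spans from -1.59 to 2.73, the colon points of Ifit1, Irf7 and Oasl2 lie below 0 for both comparisons with AL, and the hypothalamus points of DR-AL all lie below 0.

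Diet differences common to the 5 tissues were fitted in edgeR to all 15 libraries, with tissue as a term and a quasi-likelihood test of 17476 genes. Here the spread is that of the diet difference between tissues, and the tissues came from the same mice. None of the 9 genes passed an adjusted p under 0.05 in any of the 3 contrasts, where 0.0114%, 0.00572% and 0.0114% of all genes did. DESeq2 gave 0 of the 9 as well. At an unadjusted p under 0.05, edgeR gave 2 of the 9 for DR against AL, 2 for DR-AL against AL and 0 for DR-AL against DR. This was so for 657, 862 and 656 of all 17476 genes. DESeq2 gave 2, 2 and 1 of the 9, beside 1023, 1309 and 969 over all genes.

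The 2 genes in DR against AL were Rsad2, at a log2 fold change of -0.82 ± 0.364 (SE, edgeR unadjusted p = 0.0458, adjusted p = 1), and Oasl2, at -0.44 ± 0.170 (edgeR unadjusted p = 0.0269, adjusted p = 1). Those in DR-AL against AL were Irf7, at -0.50 ± 0.163 (edgeR unadjusted p = 0.0115, adjusted p = 0.852), and Oasl2, at -0.49 ± 0.170 (edgeR unadjusted p = 0.0152, adjusted p = 0.852). All 9 estimates were negative for both contrasts with AL, with a median of -0.35 and -0.28, beside 0.01 in each over all genes. Without the fat libraries, 8 and 5 of the 9 were negative. Leaving out hypothalamus gave 9 and 6, and leaving out colon gave 9 and 8. All 9 stayed negative in both contrasts without liver or without hippocampus. For DR-AL against DR the median was 0.11, and Rsad2 had the largest estimate, at 0.80 ± 0.377.

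**Figure D4:**
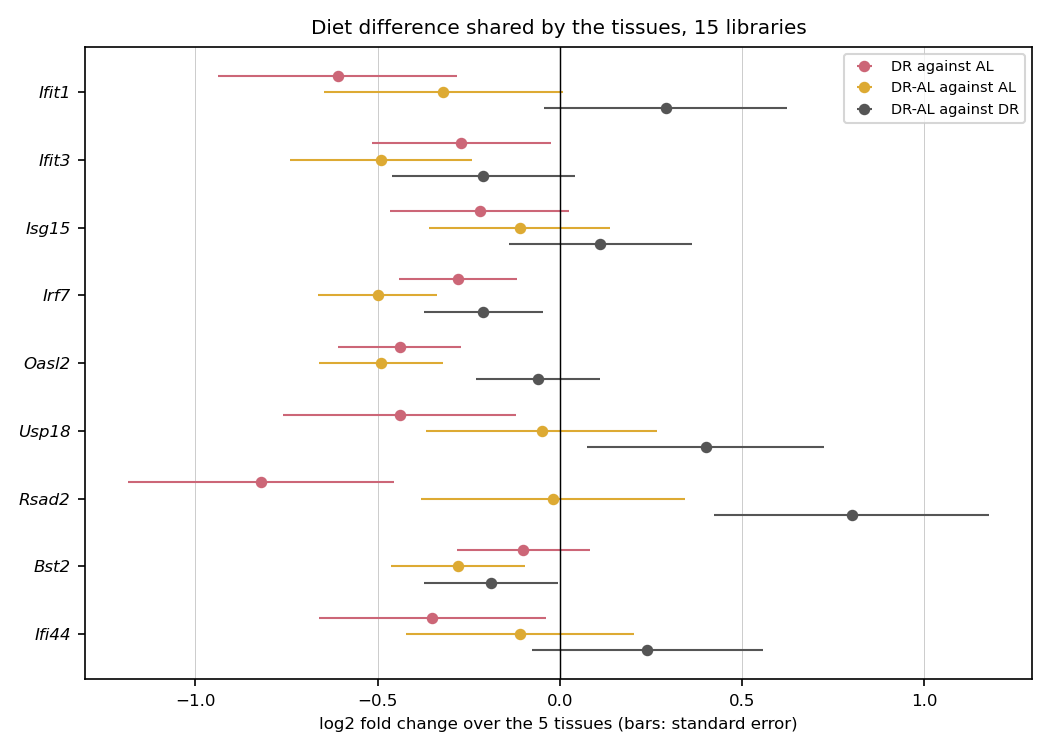
Log2 fold change shared by the 5 tissues for each gene (points) with its standard error (bars) from edgeR over the 15 libraries, for DR against AL (red), DR-AL against AL (yellow) and DR-AL against DR (grey). All red and yellow points lie at or below 0, and none of the 27 passed the adjusted threshold.

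The interferons themselves were almost absent from the counts. Of 21 interferon genes, 19 were in the table, and 14 of them, which were Ifnb1, Ifnl3, Ifnab and all genes of interferon alpha found, were at 0 in all 15 libraries, which allows up to 3 counts in each. The highest count was 7, for Ifng in AL hypothalamus, beside 2 counts in DR and 1 count in DR-AL. That gene was called lower in DR-AL than in AL, on these few counts, and the call was lost with DESeq size factors.

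Among the receptor and signalling genes, no direction held throughout. Ifnar1 lay between 34.9 and 60.3 CPM in the 15 libraries and was called in none of the comparisons. Ifnar2 was 105, 98.0 and 113 CPM in AL, DR and DR-AL liver and was called in fat alone, where DR-AL was lower than AL (-0.60). In liver, Ifngr2, a chain of the receptor of interferon gamma, had 502, 299 and 782 counts, lower in DR than in AL (-0.56) and higher in DR-AL than in AL (0.65) and in DR (1.22). Irf3 went the other way in liver, with 1418, 1896 and 958 counts, higher in DR than in AL (0.60) and lower in DR-AL than in DR (-1.15). The locus of Stat2 is merged with Apof, the gene of an apolipoprotein made in liver, so its values cannot be assigned.

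Other genes that type I interferon induces were counted over a list of 45, of which 44 were measured. In liver, DR against AL gave 18.2% higher and 22.7% lower, or 8 and 10 genes, beside 18.0% and 9.92% of all genes. DR-AL against AL gave 8 higher and 10 lower as well (18.2% and 22.7%, beside 15% and 15.8% of all genes). DR-AL against DR gave 12 higher and 9 lower (27.3% and 20.5%, beside 16.9% and 24.0% of all genes). The median was -0.11, 0.04 and 0.15 in these 3 comparisons. Among them were Cmpk2, the neighbour of Rsad2 and a nucleotide kinase, with 115, 38 and 186 counts in AL, DR and DR-AL (-1.40 for DR against AL and 2.11 for DR-AL against DR), and Tor3a, with 158, 59 and 377 counts (-1.23 and 2.50). Oasl1, with 252, 86 and 224 counts, had the same order of DR below AL and DR-AL (-1.36 and 1.21). Oas2 (48, 69 and 23 counts) and Mov10 (467, 412 and 148 counts) went the other way between DR and DR-AL (-1.73 and -1.64), so members of the list moved in both directions in liver.

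In colon the list gave 3 higher and 16 lower for DR against AL (6.82% and 36.4%, beside 9.04% and 10.6% of all genes), with a median of -0.30. It gave 0 higher and 14 lower for DR-AL against AL (0% and 31.8%, beside 5.83% and 8.50%), with a median of -0.17. Oas3, a synthetase of the RNase L activator, had 455, 264 and 172 counts (-1.12 and -1.32), and Phf11d had 129, 79 and 43 counts (-1.03 and -1.49). In hypothalamus it gave 3 higher and none lower for DR against AL (6.82% and 0%, beside 4.33% and 2.72% of all genes), which were Ifitm1, Ifitm2 and Ifitm3, genes of proteins that block viral entry. DR-AL against AL gave 1 higher and 17 lower (2.27% and 38.6%, beside 6.06% and 9.02%), with a median of -0.33, and Oasl1 fell to 3 counts from 14 (-2.12). In fat the counts were 3 higher and 15 lower for DR against AL (6.82% and 34.1%, beside 35.2% and 10.4% of all genes) and 6 higher and 11 lower for DR-AL against AL (13.6% and 25%, beside 46.0% and 11.9%). They became 2 and 21, and 3 and 27, with DESeq size factors. In hippocampus 0 were higher and 2 lower for DR against AL (0% and 4.55%, beside 1.36% and 2.67%).

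The list of 29 genes induced by interferon gamma, of which 28 were measured, had 2 higher and 12 lower in DR than in AL liver (7.14% and 42.9%, beside 18.0% and 9.92% of all genes). In DR-AL 15 were higher and 4 lower than in DR (53.6% and 14.3%, beside 16.9% and 24.0%). The median was -0.27 and 0.43. Cxcl10, a chemokine for T cells, had 82, 25 and 106 counts in AL, DR and DR-AL liver (-1.51 for DR against AL and 1.89 for DR-AL against DR), and Cxcl9 had 234, 105 and 362 counts (-0.97 and 1.61). In hypothalamus 1 was higher and 12 lower in DR-AL than in AL (3.57% and 42.9%, beside 6.06% and 9.02%), with a median of -0.44. In colon 2 were higher and 9 lower in DR than in AL (7.14% and 32.1%, beside 9.04% and 10.6%), and 10 were higher and none lower in DR-AL than in DR (35.7% and 0%, beside 6.78% and 7.67%), where none of the 9 genes was called.

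The smaller lists held few genes, so their shares rest on few calls. Of the 14 genes of nucleic acid sensing, Dhx58 (181, 124 and 300 counts in AL, DR and DR-AL liver) and Ifih1 (627, 480 and 839 counts), both sensors of viral RNA, were higher in DR-AL liver than in AL (0.74 and 0.43), and 5 of the 14 were higher and none lower than in DR, beside 16.9% and 24.0% of all genes. Of the 8 negative regulators, 5 were higher and 1 lower in DR-AL than in DR liver (62.5% and 12.5%, beside 16.9% and 24.0% of all genes). Among them Socs3, an inhibitor of Jak kinases, had 140, 81 and 204 counts in liver. It was called in all 3 comparisons there (-0.60, 0.56 and 1.16). Of the 4 genes of ISG15 conjugation, Uba7, the activating enzyme, had 144, 192 and 79 counts in liver, opposite to Isg15, and was higher in DR than in AL (0.60) and lower in DR-AL than in DR (-1.45). In hypothalamus 3 of the 4 were lower in DR-AL than in AL, beside 9.02% of all genes, with Ube2l6, the conjugating enzyme, at -0.97. Across all lists, 129 genes beside the 9 were found. Of these, 112 were measured in liver, where DR-AL against DR gave 42 higher and 19 lower (37.5% and 17.0%, beside 16.9% and 24.0% of all genes). In hypothalamus 114 were measured, with 1 higher and 25 lower (0.877% and 21.9%, beside 2.82% and 6.80%). Colon gave 18 higher and 2 lower of 112 (16.1% and 1.79%, beside 6.78% and 7.67%). Hippocampus gave 3 higher and 0 lower of 110 (2.73% and 0%, beside 3.63% and 1.26%). Fat gave 32 higher and 16 lower of 114 (28.1% and 14.0%, beside 38.3% and 13.3%), which became 22 and 22 with DESeq size factors. For DR-AL against AL, liver gave 25 higher and 20 lower (22.3% and 17.9%, beside 15% and 15.8%).

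The 9 genes were also compared with each other across the 15 libraries, after the mean of each tissue was taken off the log2 CPM. The Pearson correlation of a gene with the mean of the other 8 was 0.85 for Usp18, 0.84 for Ifit3, 0.83 for Isg15 and 0.80 for Ifit1. It was 0.73 for Rsad2, 0.72 for Ifi44 and 0.58 for Oasl2, and 0.29 for Irf7 and 0.22 for Bst2. These values describe 15 libraries of shared pools of mice, and Irf7 and Bst2 had the lowest. Among 9877 genes that averaged 1 CPM or more in each tissue, the 10 whose pattern was most like the mean of the 9 were Tab2 (0.94), Cd44 (0.92), Glce (0.89), E130311K13Rik (0.89), Lcorl (0.88), Appl1 (0.87), Vps4b (0.87), Tec (0.87), Cd274 (0.86) and Rilpl2 (0.86). Without the fat libraries their correlations over 12 libraries were between 0.86 and 0.95.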

How the data were processed

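The authors deposited a read count and an FPKM value per library for 33603 loci, 30 columns in 1 table. Their methods describe trimming, alignment to mm10 in Strand software with the strand kept, and removal of duplicate reads. The submitters' processing notes name mm9 and DESeq2. Positions in the table overlap GENCODE M21 (GRCm38) for 13.6% of matched genes, so the coordinates printed are those of GENCODE. The deposited counts are whole numbers without normalization. The scaling of the deposited FPKM values between libraries is not given in the sources used here.

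The members and gene lists were chosen with earlier results of these data known. Counts on named loci were divided by their total, and loci without a gene name, with 0.258% to 1.39% of the counts, were left out. The Z test compared square roots of these shares with Poisson variances for genes with at least 1 count in a tissue. Log2 fold changes used a pseudocount of 0.5, and intervals are exact Clopper-Pearson intervals. A count of 0 allows up to 3 counts, and such limits cover counting error only. Fits over 15 libraries used edgeR 4.0.16 with TMM and filterByExpr, and measure the spread between tissues of the same mice. The alternatives tried were DESeq size factors, library totals that leave out the 10 most abundant genes, a mean of at least 10 counts, a fold of 2, an edgeR exact test with a coefficient of variation of 0.1, FPKM with pseudocounts of 0.1 and 1, DESeq2 1.42.0, no filter, and each tissue or diet left out. Summing both strands of Isg15 and Usp18 was chosen after seeing the data. Genes named are the 9, up to 3 called genes per list and comparison with the largest change, interferons, receptors and transducers, and the 10 genes most alike. The values of 1 gene of these lists are not reported here. The Z test and the edgeR fit were also run on simulated data with known changes. The simulated counts for the Z test had Poisson spread alone, so that run does not cover spread between pools. Promoter sequences are those of RefSeq.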

Additional observations from a re-analysis of the deposited data

Results flagged for a closer look

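Of the 9 genes, all except Oasl2 were called in opposite directions in different tissues under the same comparison, and the difference between tissues was not tested. Of 11283 genes that averaged 10 counts or more in each tissue, 36.1% had such calls in at least 1 of the 3 comparisons. By comparison, 2 of the 9 had them for DR against AL (10.8% of these genes), 5 for DR-AL against AL (19%) and 2 for DR-AL against DR (21.7%). With DESeq size factors the calls of Irf7 in fat, Bst2 in liver and Usp18 in colon and hypothalamus were lost. For DR against AL, the log2 fold change of Irf7 was 0.46 in fat and -0.74 in colon, and that of Bst2 was 0.32 in liver, 0.54 in colon and -0.37 in fat. For DR-AL against AL, 5 genes were higher in liver and lower elsewhere. Rsad2 was 1.14 in liver, -0.57 in fat and -0.84 in hypothalamus, and Usp18 was 0.90 in liver, -0.82 in colon and -0.78 in hypothalamus. Isg15 was 0.81 in liver and -0.54 in colon, and Ifi44 was 0.67 in liver and -0.56 in fat. Ifit3 was 0.38 in liver, -0.53 in fat, -0.91 in colon and -1.03 in hypothalamus. For DR-AL against DR, Ifit1 was 1.71 in liver and -0.69 in hypothalamus, and Ifit3 was 0.84 and -1.17.

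The loci on the strand opposite Isg15 and Usp18, which enter no comparison, held counts above the 3 that a count of 0 allows. For Isg15 this was so in 6 libraries, all of brain, with at most 52 counts, and for Usp18 in 7 libraries, with at most 35 counts in AL fat.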

How the results depend on the processing

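The fits over the 15 libraries already had tissue, or diet, as a block, and within a tissue no replicates could be paired. With a fold of 2, the 9 genes called numbered 2 and 1 in liver (DR and DR-AL against AL), 0, 0 and 0 in fat (DR against AL, DR-AL against AL, DR-AL against DR), 2 and 1 in colon, 0, 2 and 1 in hypothalamus and 0 in hippocampus (DR-AL against AL). With the exact test at a coefficient of variation of 0.1 they numbered, in that order, 2 and 3, then 3, 2 and 1, then 3 and 2, then 0, 2 and 1, then 0. DESeq size factors gave 8 in fat for DR-AL against AL, and 53 list genes in place of 35 in fat for DR against AL. A mean of at least 10 counts gave 2 in hypothalamus for DR against AL. By fold alone in FPKM with a pseudocount of 0.1, fat had 9 (DR-AL against AL) and 8 (DR-AL against DR), colon 3 (DR-AL against DR), hypothalamus 2 (DR against AL) and hippocampus 2, 4 and 5. With a pseudocount of 1, fat had 9 and 5, colon 2, hypothalamus 0 and hippocampus 0 and 1 (DR-AL against AL and against DR). The cause was not tested. The other 169 recomputed counts stayed within 1.5 times, among them those with both strands summed and all 0 counts over the 5 tissues.

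Directions turned in fat with FPKM at pseudocounts of 0.1 and 1 for Irf7 (DR against AL, -0.35 and -0.31), Usp18 (DR-AL against DR, -0.06 and -0.03) and Rsad2 (DR-AL against DR, -0.48 and -0.29). Over the 5 tissues, leaving out 1 tissue turned estimates that had not passed the test. The ranges were -0.25 to 0.04 for Bst2 (DR against AL), and for DR-AL against AL -0.43 to 0.04 for Isg15, -0.39 to 0.11 for Usp18, -0.46 to 0.22 for Rsad2 and -0.38 to 0.13 for Ifi44. For DR-AL against DR they were -0.10 to 0.56 for Ifit1, -0.54 to 0.02 for Ifit3, -0.23 to 0.24 for Isg15 and -0.16 to 0.09 for Oasl2. Between hypothalamus and hippocampus, 1 or 2 genes differed when 1 diet was left out. Genes under about 30 counts, such as Ifi44 in brain and colon, have wide counting intervals.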
